A study of Mus musculus with 4 samples.

Results

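DNA methylation in mammals is set by DNMT writers, changed by TET oxygenases and read by MBD proteins. The messenger RNAs of 10 genes of this machinery were examined for positions called as methylated in RNA: Dnmt1, Dnmt3a, Dnmt3b, Tet1, Tet2, Tet3, Mbd1, Mbd2, Mbd3 and Mbd6. A position belonged to the set when the authors' deposited table of sites unique to the Tet2 knockout (KO) carried the symbol of one of these genes among its transcript labels. This rule found 735 of the 506952 listed sites, in 9 of the 10 genes, and 0 sites in Tet1. The samples were NRAS/AE9a leukemic cells, a mouse acute myeloid leukemia (AML) model driven by NRAS together with AE9a, a shortened AML1-ETO fusion protein. There were 2 libraries of Tet2 KO cells and 2 of wild-type (WT) cells, all of bisulfite-treated poly(A) RNA. KO and WT cells were kept in the same RPMI medium. It held puromycin (2 µg/ml) and G418 (1 mg/ml), with SCF at 50 ng/ml and IL-6 and IL-3 at 10 ng/ml each. The labels do not say how Tet2 was deleted or whether the line is 1 clone. Nor do they tell whether the 2 libraries of a genotype came from different cultures, and their spread may be technical. The table has 0 columns with WT values, so no level was compared between KO and WT.

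DNMT3A and DNMT3B place new methyl groups on cytosine in DNA, and DNMT1 copies the pattern onto the new strand after replication. TET1, TET2 and TET3 oxidise 5-methylcytosine, in DNA and also in RNA, and loss-of-function mutations of TET2 and mutations of DNMT3A are common in human myeloid leukemia. MBD1 and MBD2 bind methylated CpG through the methyl-CpG-binding domain, while MBD3, a subunit of the NuRD deacetylase complex, and MBD6, a partner of the BAP1 deubiquitinase complex, carry the domain but bind methylated CpG in DNA weakly or not at all. In bisulfite sequencing of RNA, unmethylated cytosine is read as thymine and 5-methylcytosine stays cytosine. The methylation level of a site is the fraction of the reads used that kept cytosine.

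The reference bases under listed sites could be read where a site fell into a RefSeq promoter window (GRCm38.p6), which runs from 250 bases before an annotated gene start to 50 bases after it. Of the 10 genes, Dnmt3a had 2 sites in such a window, and both lay on a reference cytosine. They are shown with stretches from 2 related genes, Mbd5, another methyl-CpG-binding domain gene, and Chd4, the ATPase of NuRD, because the bases under their listed sites differ. Each sequence is the plus strand from 5′ to 3′, and capitals mark the listed positions.
Dnmt3a, chr12:3807096-3807125: gccgcccgacCcgccgggcCacacggtaac
Mbd5, chr2:49245803-49245832: ccagCatagGtgaattatgattttcCctgg
Chd4, chr6:125096183-125096212: ccccttcggccgcggcgAGgaggagCtGga
In Dnmt3a, the site at 3807106 kept cytosine in 3 of 10 reads used, with 14 reads covering it, and the site at 3807115 in 7 of 10, with 26 covering. The first listed position of Mbd5 is a C with a level of 0.6, the middle one a G with 0.25, and the last a C with 0.7. The 4 listed positions of Chd4 are A, G, C and G, with levels of 0.545, 1, 0.824 and 0.889. Several of these positions are therefore listed with unconverted cytosines where the reference holds no cytosine.

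That pattern was general in the windows and followed the share of covering reads that went into the level. Among 5942 plus-strand sites in the windows, 3084 (51.9%, Clopper-Pearson 95% interval 50.6 to 53.2) lay on a reference C. A further 1783 (28.8% to 31.2%) lay on G, 1075 (17.1% to 19.1%) on A and 0 on T, which allows a share on T of up to 0.0621%. Sites called in 1 KO library with under 80% of their covering reads used lay on C in 1960 of 1960 cases (interval 99.8% to 100%). With 80% or more of the reads used, 543 of 3135 (17.3%, 16.0 to 18.7) lay on C. Sites called in both KO libraries lay on C in 581 of 847 cases (68.6%, 65.3 to 71.7). On the minus strand, read on that strand, the base was C in 130 of 144 cases (90.3%, 84.2 to 94.6). The median level was 0.7 on C, 0.667 on G and 0.6 on A among plus-strand sites, so the level alone did not tell these bases apart. The 80% boundary was chosen after these values were seen. Whether it sorts bases in the same way beyond the windows was not tested, and the base under the other 733 sites of the 10 genes was not read here. For those sites, reads described as keeping cytosine are reads listed as unconverted, and a cytosine in the reference is not implied.

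**Figure D1:**
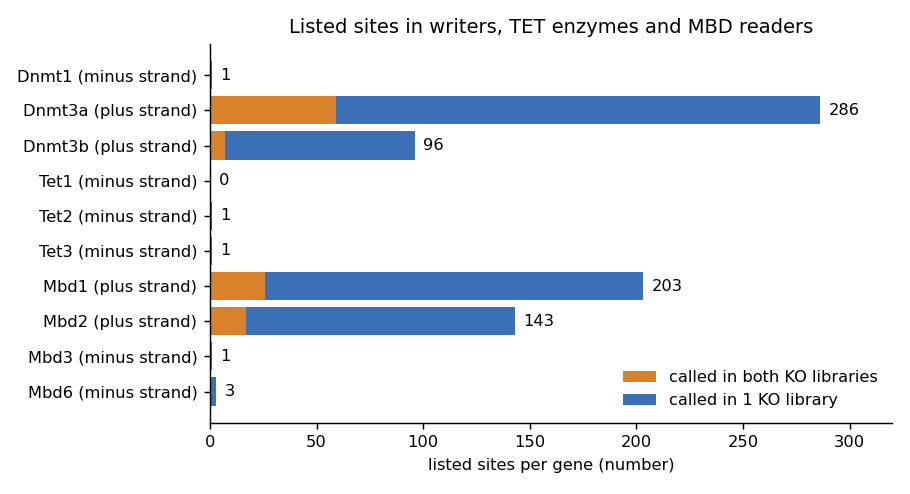
Number of listed sites in each of the 10 genes on a linear axis, with the strand beside the gene, split into sites called in both KO libraries (orange) and in 1 KO library (blue). The 4 plus-strand genes had 96 to 286 sites each and the 6 minus-strand genes 0 to 3.

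The strand of the gene separated the 10 genes by number of sites. Dnmt3a, Dnmt3b, Mbd1 and Mbd2 are transcribed from the plus strand and held 728 of the 735 sites, whereas Dnmt1, Tet1, Tet2, Tet3, Mbd3 and Mbd6, on the minus strand, held 7. The same split ran through the table: the number of sites per listed gene was 68 at the median on the plus strand (quartiles 34 and 114, 5771 genes) and 1 on the minus strand (quartiles 1 and 2, 2050 genes). A site was listed in 9 of the 10 genes, against 34.2% of all protein-coding genes. Of the members whose strand is given in the RefSeq promoter table, both plus-strand genes, Dnmt3a and Dnmt3b, had one, against 51.4% of plus-strand protein-coding genes in it. Of the 6 minus-strand members 5 had one, against 18.5% of minus-strand genes in it. For Mbd1 and Mbd2 the strand was taken from the listed sites. The table holds only sites with at least 10 covering reads and a level of at least 0.2. It is also a list of sites unique to the KO, which would leave out any site called in WT as well. A gene with few or no sites is therefore not shown to lack methylation. Nor can a low number of sites be told apart from low expression, since no RNA level was used here.

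Among the writers, the de novo methyltransferase genes Dnmt3a and Dnmt3b carried many sites and the maintenance gene Dnmt1 carried 1. Dnmt3a (chromosome 12, 3801559 to 3914443, mm10) had 286 sites, more than any other member, and 96 of the 5771 plus-strand genes with a site had more. Dnmt3b (chromosome 2, 153649411 to 153687730) had 96 sites, and 1906 of those genes had more. Their median levels were close, 0.541 for Dnmt3a (quartiles 0.4 and 0.734) and 0.545 for Dnmt3b (quartiles 0.4 and 0.7). They differed in depth: the median number of covering reads was 20 in Dnmt3a (range 10 to 78) and 16 in Dnmt3b (range 10 to 27).

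The sites of Dnmt3a crowded towards its 3′ end, as measured along the gene span. Exons were not located here, and their part in this crowding and in the layouts of the other genes was not tested. The last 10% of the gene span held 174 of the 286 (60.8%). A single stretch of 7391 nt, from 3906844 to 3914234, held 170 of them at a median level of 0.545. The last site of that stretch lay 209 nt before the end of the gene. A second cluster of 35 sites, from 3895553 to 3897609, had a median level of 0.5 at a deeper median coverage of 29 reads. The highest level in Dnmt3a with the most covering reads was at 3911115, where 12 of 12 reads used kept cytosine (Wilson 95% interval 0.758 to 1). These 12 were 28.6% of the 42 reads covering the site. The most deeply covered site, 3906844 with 78 reads, was called in both KO libraries at levels of 0.309 and 0.349 (mean 0.329 ± 0.0283, SD, n = 2). The site with the most reads used, 3907868, kept cytosine in 25 of 60 (0.417, Wilson interval 0.301 to 0.543). The highest site called in both libraries, 3910985, had a level of 1 in each at 11 covering reads. The 12 single-call sites of Dnmt3a with a level of 1 had at most 13 reads used, and its 37 single-call sites with 20 or more reads used ran from 0.2 to 0.903.

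Dnmt3b showed another layout. Only 6 of its 96 sites (6.25%) fell in the last 10% of the gene, and the rest formed small clusters along the span. A cluster of 27 sites, from 153665254 to 153666094, had a median level of 0.636. A cluster of 18 sites spanned 142 nt, from 153667508 to 153667649. A first cluster of 9 sites began 294 nt after the gene start, with a median level of 0.417. Of all 96 sites, 81 (84.4%) had another listed site within 10 nt, against 201 of 286 (70.3%) in Dnmt3a. The longest run of directly adjacent listed positions was 4 nt in Dnmt3b, from 153665254 to 153665257 with levels of 0.3 to 0.727, and also 4 nt in Dnmt3a, from 3911278 to 3911281 with levels of 0.2 to 0.5. The highest site of Dnmt3b, 153670342, kept cytosine in 12 of 12 reads used of 17 covering (Wilson interval 0.758 to 1). Its most deeply covered site, 153676829 with 27 reads, kept it in 3 of 13 (0.231, Wilson interval 0.0818 to 0.503). Its site with the most reads used, 153676834, kept it in 7 of 23 (0.304, Wilson interval 0.156 to 0.509). The highest site called in both libraries, 153662156, had 0.579 in one and 0.699 in the other (mean 0.639 ± 0.0849, SD, n = 2).

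Dnmt1 (chromosome 9, 20907206 to 20959888), the maintenance methyltransferase gene, had its 1 site at 20941444. The site kept cytosine in 2 of 10 reads used (0.2, Wilson interval 0.0567 to 0.510), out of 36 covering reads. It lay 34238 nt before the 3′ end of the gene. Like the 3 sites of Mbd6, it was outside the last 10% of its gene. The sites of Tet2, Tet3 and Mbd3 lay in the last 10% of their genes.

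**Figure D2:**
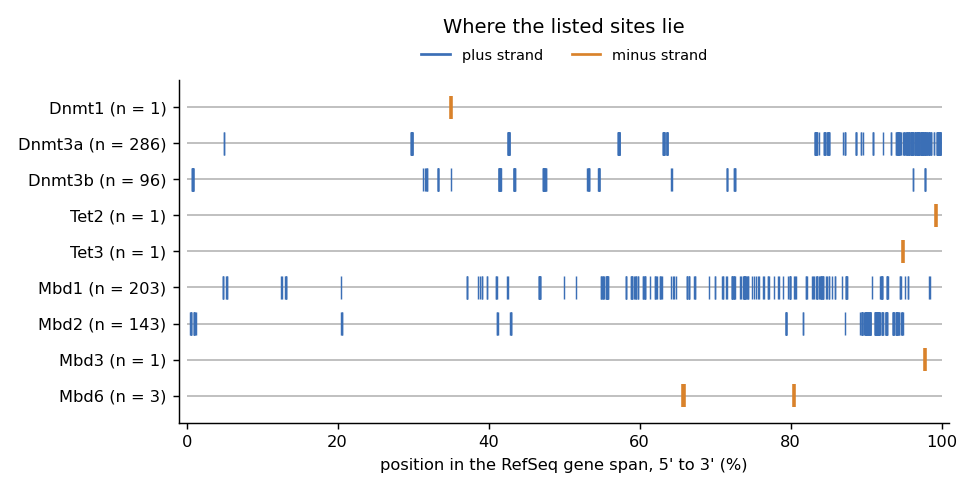
Position of each listed site along its gene, from 0% at the 5′ end of the RefSeq span to 100% at the 3′ end, with 1 tick per site for the 9 genes with a site. Sites of Dnmt3a and Mbd2 crowd near the 3′ end, with 60.8% and 66.4% in the last 10%, while Dnmt3b and Mbd1 have 6.25% and 10.3% there. Those of Dnmt3b form clusters along the gene, and 93.6% of those of Mbd1 lie in 1 stretch from 37.1% to 98.4%.

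The TET genes had the fewest sites of the 3 families. Tet1 (chromosome 10, 62804570 to 62887469) had 0, Tet2 (chromosome 3, 133463677 to 133545136) had 1 and Tet3 (chromosome 6, 83362373 to 83457208) had 1; all of them are minus-strand genes. A single site was the usual case there: 1235 of the 2050 minus-strand genes with a site (60.2%) had exactly 1. The Tet2 site, 133464345, lay 668 nt before the 3′ end of the gene, at 99.2% of the span. The Tet3 site, 83367264, lay 4891 nt before the 3′ end, at 94.8%. Both sites kept cytosine in 3 of 11 reads used, a level of 0.273 with a Wilson interval of 0.0975 to 0.566. The Tet2 site was covered by 21 reads, of which 52.4% were used, and the Tet3 site by 32 reads, of which 34.4% were used. Both were called in 1 KO library. The sources used here do not name the deleted part of Tet2, and reads at its 3′ end do not check the knockout.

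The level of the Tet2 site did not differ detectably from those of its relatives. Against the Tet3 site the difference was 0 (two-sided Fisher's exact test, p = 1), and Tet1 offered no site to compare. At 11 reads used, 3 unconverted reads are the fewest that reach the lowest listed level of 0.2. Both sites sat at that limit, below which no site is listed, so this comparison cannot show that the levels are alike. A family of 10 comparisons, this one and 9 others, was chosen after the data were seen, with every site of the other minus-strand members and the most deeply used single-call site of each plus-strand member. The widest gap was with the Mbd2 site 70568897, whose level was 0.69 (49 of 71 reads). The difference, Tet2 minus Mbd2, was -0.417, with a Fisher's exact p of 0.015 that became 0.15 after Benjamini-Hochberg adjustment over the 10 pairs. The Mbd1 site 74273489, at 36 of 74 reads, gave a difference of -0.213 (Fisher's exact p = 0.214). The Dnmt3a site 3907868, at 25 of 60 reads, gave -0.144 (Fisher's exact p = 0.508). With 11 reads at the Tet2 site, its interval spans 0.0975 to 0.566, so differences like those with Mbd1 and Dnmt3a were not detectable at this depth. The Mbd2 level lay outside that interval, and its difference did not pass after adjustment. These tests compare reads at single sites, not conditions. The plus-strand sites in this family all had 80% or more of their covering reads used, against 52.4% at the Tet2 site. In the promoter windows, 17.3% of single-call plus-strand sites with that share used lay on a reference C. On the minus strand, 109 of 109 single-call window sites under 80% did. The bases at Tet2 and at the compared sites were not read, so these levels need not all be those of cytosines. Among all 4761 minus-strand sites, 1719 (36.1%) had a level at least as high as that of Tet2, 3177 (66.7%) had at least as many covering reads, and 233 (4.89%) had exactly 3 of 11 reads.

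**Figure D3:**
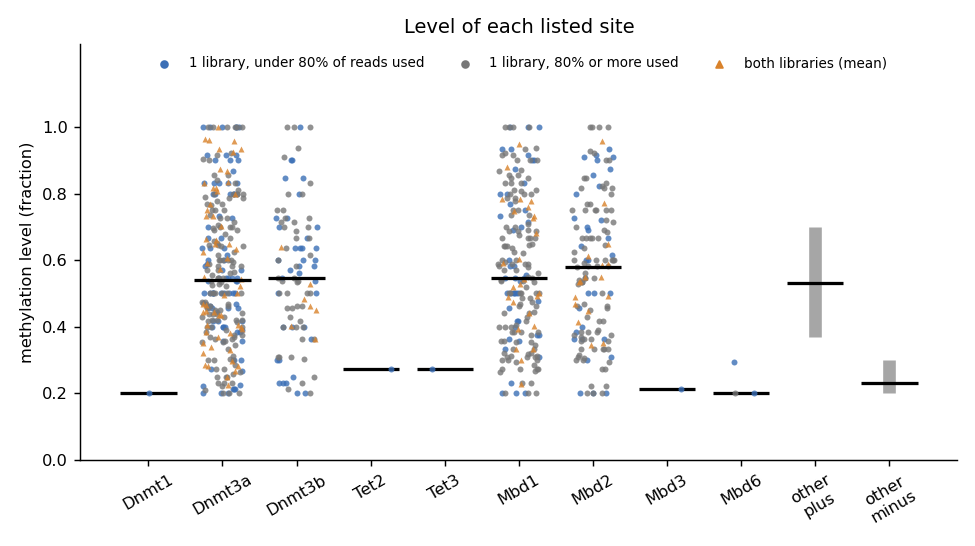
Methylation level of every listed site in the 9 genes with a site, as the fraction of reads used that kept cytosine, 1 point per site with the gene median as a black line; colours mark the calling libraries and the share of reads used, and grey bars give the quartiles of all other sites of each strand. The 7 sites of minus-strand genes lie between 0.2 and 0.294, and those of the plus-strand genes run from the lowest listed level of 0.2 to 1.

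Among the readers, Mbd1 and Mbd2 carried many sites and Mbd3 and Mbd6 few. Mbd1 (chromosome 18, 74267605 to 74282737), which recruits the histone methyltransferase SETDB1, had 203 sites in a span of 15133 nt, the shortest of the 4 plus-strand members. Of the 5771 plus-strand genes with a site, 360 had more. Its median level was 0.545 (quartiles 0.397 and 0.75) at a median coverage of 20 reads (range 10 to 91). One stretch of 9275 nt, from 74273224 to 74282498, held 190 of the sites (93.6%). A pair of small clusters of 6 sites nearer the 5′ end stood higher in level: 0.817 from 74268333 to 74268419 and 0.714 from 74269492 to 74269603. In the second of these, 4 of the 6 sites were called in both KO libraries, against 26 of 203 over the whole gene.

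At the most deeply read site of Mbd1, 74273489, 36 of 74 reads used kept cytosine, out of 91 covering (0.486, Wilson interval 0.376 to 0.598). The highest level with the most covering reads was at 74280008, covered by 29 reads, where 11 of 11 used kept it (Wilson interval 0.741 to 1). The highest site called in both libraries, 74276514, had 0.9 in one and 1 in the other (mean 0.95 ± 0.0707, SD, n = 2). The most deeply read site was thus near the middle of the range. The widest gap between libraries in Mbd1 was at 74269593, with 0.57 in one and 1 in the other at 17 covering reads.

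Mbd2 (chromosome 18, 70568225 to 70629134), whose protein bridges methylated CpG to NuRD, had 143 sites with a median level of 0.579 (quartiles 0.385 and 0.725). It was the member with the highest median, and 77.1% of the 3613 plus-strand genes with at least 50 sites had a lower one. The same share was 56.4% for Dnmt3a and 58.7% for each of Dnmt3b and Mbd1. Its sites fell mainly into 2 places. A stretch of 3412 nt near the 3′ end, from 70622580 to 70625991, held 113 sites (79.0%) at a median level of 0.583. A cluster of 11 sites within 438 nt, from 70568524 to 70568961, began 299 nt after the gene start and had a median level of 0.818. That first cluster held both the highest site of Mbd2 with the most covering reads, 70568569 with 14 of 14 reads used (Wilson interval 0.785 to 1), and the most deeply read one. At that site, 70568897, 88 reads covered the position and 49 of the 71 used kept cytosine (0.69, Wilson interval 0.575 to 0.786). The highest site called in both libraries, 70624068, lay in the 3′ stretch with levels of 0.918 and 1 (mean 0.959 ± 0.058, SD, n = 2).

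The listed levels of Mbd3 and Mbd6 were low, as at the other minus-strand sites (median 0.231, quartiles 0.2 and 0.3). The lowest listed level is 0.2. Every site here but 127285004 of Mbd6 had the fewest unconverted reads that reach it at its number of reads used. A low level is thus not shown to be particular to these genes. Mbd3 (chromosome 10, 80392539 to 80399531) had 1 site, 80392695, only 156 nt before its 3′ end. It kept cytosine in 6 of 28 reads used (0.214, Wilson interval 0.102 to 0.395), out of 63 covering. These were the most reads used and the most covering reads at any of the 7 minus-strand sites. Mbd6 (chromosome 10, 127281956 to 127290869) had 3 sites, a number exceeded by 224 of the 2050 minus-strand genes with a site. At 127283699 it kept cytosine in 2 of 10 reads used out of 23 covering, and at 127285004 in 5 of 17 out of 22 (0.294, Wilson interval 0.133 to 0.531). At 127284996 it kept cytosine in 2 of 10 used, and those 10 were all the reads that covered the site. That was the one site of the 7 with 80% or more of its reads used. The 3 Wilson intervals of Mbd6 overlap, so its sites are not told apart at this depth.

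The gene medians of the plus-strand members ran from 0.541 in Dnmt3a to 0.579 in Mbd2, and the difference between them was not tested. A single site was known much less well: the median width of the Wilson interval at a single-call site ran from 0.414 in Mbd1 to 0.468 in Dnmt3b. In Dnmt3a, 165 of the 227 single-call sites had an interval that included the median of the gene, as had 67 of 89 in Dnmt3b, 118 of 177 in Mbd1 and 91 of 126 in Mbd2. Pooled, the 728 plus-strand sites of the members had a median level of 0.545 (quartiles 0.4 and 0.729), against 0.531 (quartiles 0.37 and 0.7) for the other plus-strand sites. Coverage was similar too, with a median of 18 reads in the members and 17 in the rest. The 7 minus-strand sites of the members had a median level of 0.214, against 0.231 for the other minus-strand sites. Neither pair of medians was tested, because sites of a gene share their libraries.

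Levels were lower at single-call sites with at least 20 reads used than over all sites of the gene. The 37 single-call sites of Dnmt3a with at least 20 reads used had a median level of 0.44, against 0.541 over all its sites. The median was 0.51 at 42 such sites of Mbd1, against 0.545, and 0.41 at 10 such sites of Mbd2, against 0.579. Dnmt3b had 1 such site, at 0.304. In Dnmt3a, all such sites but 3908259 and 3912615 had 80% or more of their covering reads used. In the promoter windows, 17.3% of single-call plus-strand sites of that class lay on a reference C. The part of the reference base in these levels was not tested. A site with few reads can enter the list only with at least 2 unconverted reads and a level of 0.2, and the part of that limit in the order of levels was not tested.

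**Figure D4:**
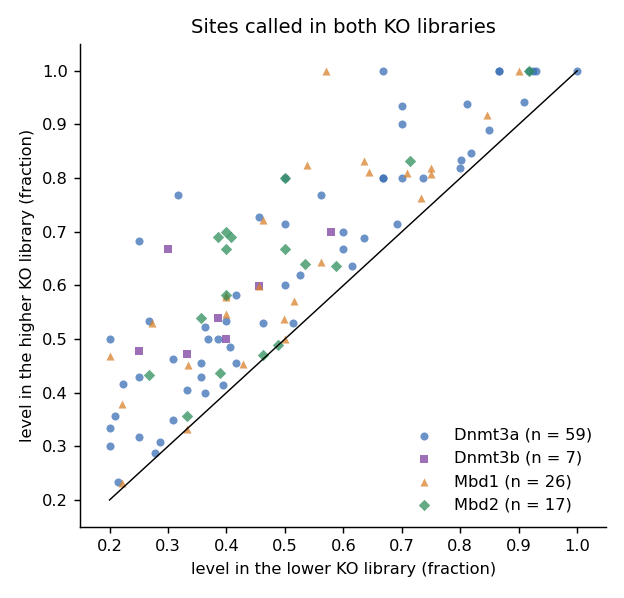
Methylation level, as a fraction, at the 109 sites called in both KO libraries, with the lower of the 2 library levels on the horizontal axis, the higher on the vertical axis, 1 point per site by gene and a line where they are equal. The median difference was 0.114 and the largest, in Dnmt3a, was 0.452.

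Most sites were called in a single KO library. Among the members, 109 of 735 sites (14.8%, Clopper-Pearson interval 12.3 to 17.6) were called in both. On the plus strand it was 109 of 728 (12.5% to 17.8%), against a background of 14.3% over all plus-strand sites, which lies within that interval. Of the 4 plus-strand members, Dnmt3a had the highest share, 59 of 286 (20.6%, 16.1 to 25.8), and Dnmt3b the lowest, 7 of 96 (7.29%, 2.98 to 14.4). Mbd1 had 26 of 203 (12.8%, 8.54 to 18.2) and Mbd2 17 of 143 (11.9%, 7.08 to 18.4). Median coverage was 20 reads in Dnmt3a and Mbd1 and 16 in Dnmt3b and Mbd2, and the part of coverage in these shares was not tested. On the minus strand, 0 of the 7 sites were called in both, which allows a share of up to 41.0%, against 520 of 4754 (10.9%) for the other minus-strand sites.

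Where both libraries made the call, their levels often differed. The median difference between the libraries was 0.114 over the 109 sites, against 0.1 over the other plus-strand sites called in both, and at 52 of the 109 (47.7%) it was at most 0.1, against 53.4% of those other sites. By gene the median difference was 0.1 in Dnmt3a, 0.11 in Mbd1, 0.144 in Dnmt3b and 0.166 in Mbd2. The largest was at 3872866 in Dnmt3a, with 0.317 in one library and 0.769 in the other at a mean of 22 covering reads. Only in Dnmt3a was the median level of sites called in both higher, at 0.55 against 0.538 at its single-call sites. These differences in level were not tested. In Dnmt3b the median was 0.462 at sites called in both, against 0.562 at single-call sites. In Mbd1 the median was 0.535 at sites called in both, against 0.548 at single-call sites, and in Mbd2 it was 0.538, against 0.583.

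**Figure D5:**
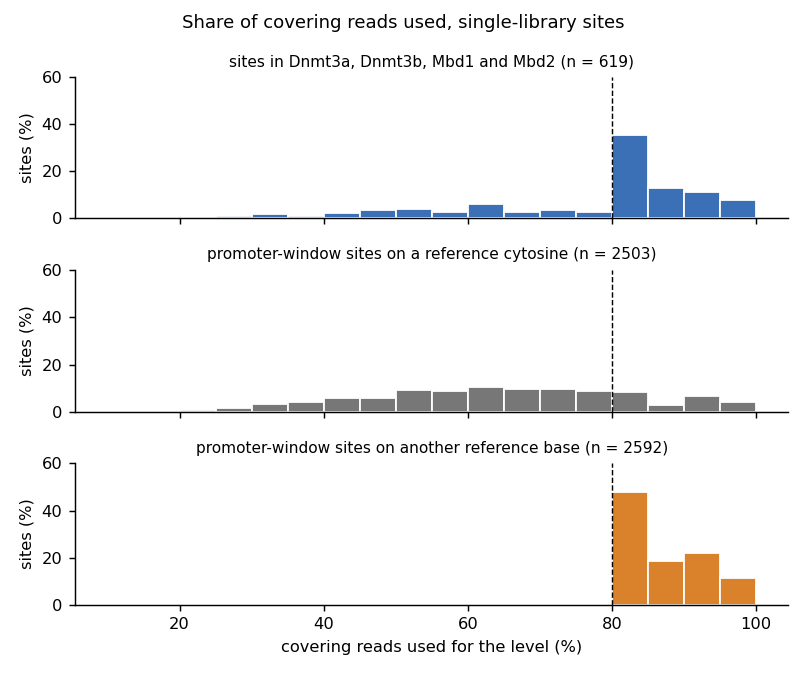
Share of covering reads used for the level at single-call plus-strand sites, in percent, as histograms of the percentage of sites for the 4 plus-strand genes (619 sites) and for promoter-window sites on a reference cytosine (2503) or on another base (2592), with a dashed line at 80%. Window sites on another base all lie at 80% or more, while 202 of the 619 sites of the 4 genes lie under it.

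The share of covering reads used, which tracked the reference base in the promoter windows, also split the members by strand. Under 80% of the reads were used at 6 of the 7 minus-strand sites (85.7%, 42.1 to 99.6), as at 3373 of 4234 (79.7%) of the other single-call minus-strand sites. On the plus strand it was 202 of 619 single-call sites (32.6%, 28.9 to 36.5), against a background of 32.2%. Dnmt3b had 38 of 89 such sites (42.7%), Dnmt3a 85 of 227 (37.4%), Mbd1 47 of 177 (26.6%) and Mbd2 32 of 126 (25.4%). The sites of Tet2, Tet3, Dnmt1 and Mbd3 were all in this class.

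Restricting the plus-strand members to this class cut their numbers of sites but moved their levels little. The median level at sites under 80% was 0.545 in Dnmt3a, against 0.531 at its other single-call sites. It was 0.583 in Dnmt3b, against 0.538, then 0.545 in Mbd1, against 0.567, and 0.608 in Mbd2, against 0.581. The class included levels of 1 at 6 sites of Dnmt3a, 3 of Mbd1 and 1 of Dnmt3b. The site of this class with the most reads used was 3908259 in Dnmt3a, with 7 unconverted reads of 31 used and 69 covering (0.226, Wilson interval 0.114 to 0.398). In Mbd2 it was 70622705, with 13 of 18 used (0.722, Wilson interval 0.491 to 0.875). In Dnmt3b it was 153665339, with 9 of 16 (0.562, Wilson interval 0.332 to 0.769), and in Mbd1 74282498, with 5 of 25 (0.2, Wilson interval 0.0886 to 0.391). In this class too, levels at well-read sites ranged widely.

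The wider pathway showed the same split by strand. Of 45 other genes of DNA methylation and its readers, 33 had a site. By the strand in the RefSeq promoter table they were 25 of 26 plus-strand genes, all but the TET2 inhibitor gene Cxxc4, against 51.4% of plus-strand genes. On the minus strand they were 5 of 12, against 18.5%, and of 7 genes with no strand there 3 had sites. By role, sites were listed in 4 of 5 maintenance genes and cofactors, 4 of 6 other readers, 6 of 9 removal and repair genes and 9 of 10 NuRD genes. They were also listed in all 7 genes of the MBD5 and MBD6 partners, in 1 of 2 MBD1 partners, Atf7ip, and in 2 of 6 TET regulators and cosubstrate enzymes, Cxxc5 and Ogt. The isocitrate dehydrogenase genes Idh1 and Idh2, which make the TET cosubstrate 2-oxoglutarate, had 0. Both are minus-strand genes, where 18.5% was the background. Over all protein-coding genes it was 34.2%, and the roles differed in strand. The MBD5 and MBD6 partners were 6 plus-strand genes and 1 minus-strand gene. The TET regulators and cosubstrate enzymes were 3 plus-strand genes, 2 minus-strand genes and 1 without a strand. Differences between roles were not tested.

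The 28 genes with sites on the plus strand had 16 to 268 sites each and median levels of 0.42 to 0.667. The most sites were in Chd4, with 268 at a median level of 0.5, of which 30 were called in both libraries. Next were Foxk1, a forkhead factor gene, with 219 at 0.545, and Asxl2, a Polycomb-related gene, with 197 at 0.45. The highest levels at 20 or more covering reads were all 1. Cxxc5, a zinc-finger gene, reached it at a site called in both libraries with 41 covering reads. The uracil glycosylase gene Ung reached it with 10 of 10 reads used out of 40. The maintenance factor gene Uhrf1, which brings DNMT1 to hemimethylated DNA, reached it with 12 of 12 out of 32, level in coverage with Asxl1 at 10 of 10 out of 32. The 5 minus-strand genes Mbd4, Gadd45a, Rbbp4, Gatad2a and Hcfc1 had 7 sites in all, with site levels of 0.2 to 0.3.

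The labelled cell type was checked against its defining genes by whether they carried a site. Of 12 myeloid and progenitor markers, 10 did, among them the myeloperoxidase gene Mpo with 217, Csf3r with 221 and Kit with 106. The T cell markers Cd3e, Cd4 and Cd8a had 0. Of 3 erythroid and megakaryocyte markers, 1 did, and of 3 stromal markers, 1 did. All 6 pancreatic islet genes had sites, including Gcg with 228 and Ins2 with 139, which goes against the label. The part of whatever gave these islet sites in the counts of the methylation genes was not tested.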

How the data were processed

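Bisulfite-treated poly(A) RNA of 2 Tet2 KO and 2 WT libraries was sequenced, single-end per the labels. Groups came from the titles and genotype labels. The build mm10 is from the submitters' processing notes. The sources used here do not name the aligner or site caller or give library totals.

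In the authors' deposited table the covering and unconverted reads are a score per the file headers: reads of 1 library where 1 KO replicate made the call, and otherwise the mean of both, rounded by the authors. The level is the authors' deposited fraction, unconverted over used reads, and the reads used were recovered from it (whole at 626 of 626 single-call member sites, tolerance 0.0006). The combined p-values are deposited by the authors (in the authors' deposited table at most 0.000114 for the state, 0.0773 for the rate). The number of replicates with a call is a deposited column. The deposited SD was read as a population SD, since none passed 0.4, and was converted to a sample SD. There were 0 columns of other samples.

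Gene spans and promoter windows came from RefSeq (GRCm38.p6), matched by symbol; a gene's strand is that of its listed sites or, where it had none and in all shares of genes by strand, that of the promoter table, and 1 of the 10 genes had a listed site inside a window. No exon annotation or genome was used here, so location is the place in the gene span. Tet2 was compared by two-sided Fisher's exact test, threshold 0.05 after adjustment. Intervals at 95% are Wilson for levels and Clopper-Pearson for shares; both cover counting error only, and reads without molecular identifiers are not independent molecules. Clusters were split at gaps over 1000 nt. Named sites were all sites of members with 5 or fewer, otherwise the highest level, most covering reads, most reads used and highest level in both libraries, with ties to higher coverage. Of the 45 other pathway genes, the 3 with most sites and the 3 with the highest level at 20 covering reads were named. Members and lists were chosen with earlier results of these data known. Scripts were tested on simulated data. Python 3.11.15, pandas 2.3.3, scipy 1.17.1 and statsmodels 0.14.6 were used.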

Additional observations from a re-analysis of the deposited data

How the results depend on the processing

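The 735 member sites fell to 327 at 20 covering reads, 128 at 30 covering reads, 91 with at least 20 reads used, 109 called in both KO libraries, 205 with no other listed site within 10 nt and 208 with 1 call and under 80% of reads used, the last an alternative added after the data were seen. Reads used are known only at single-call sites, so the setting of 20 reads used leaves out all 109 sites called in both libraries. The 9 genes with a site fell to 5 with at least 20 reads used and to 4, the plus-strand genes, when a call in both libraries was required. At 30 covering reads 6 remained, and Tet2 was not among them. The share of sites called in both libraries was 18.0% at 20 and 22.7% at 30 covering reads, against 14.8% as listed. The pooled median level, 0.545 as listed, ran from 0.469 to 0.572 over the alternatives. By gene the median ran from 0.44 to 0.571 in Dnmt3a, 0.462 to 0.583 in Dnmt3b, 0.5 to 0.583 in Mbd1 and 0.41 to 0.608 in Mbd2. The Tet2 and Tet3 comparison gave p = 1 (Fisher's exact test) wherever both sites remained; a state p of at most 1e-06, 30 covering reads and 20 reads used each removed the Tet2 site. Over the alternatives 27 to 33 of the other pathway genes had a site. No paired analysis was possible because the table has no values of single WT libraries. Leaving out each KO replicate was not run for the same lack of single-library values. With a median of 13 reads used, a single plus-strand level is known only to within an interval about 0.4 wide. The cause of these shifts was not tested, beyond fewer sites entering each count.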
